A study of Mus musculus with 6 samples.

Results

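The genes described here encode the 4 ID proteins (*Id1*, *Id2*, *Id3* and *Id4*) and 6 components of bone morphogenetic protein (BMP) signalling: the ligand *Bmp4*, the secreted antagonist *Grem1*, the receptors *Bmpr1a* and *Bmpr2*, and the inhibitory SMADs *Smad6* and *Smad7*. They were looked up by symbol in a PRO-seq table of 14546 genes, which lists all 10. PRO-seq is a run-on assay in which polymerases already engaged on a gene incorporate biotinylated nucleotides, so that the sequenced RNA reports where transcription was under way. The libraries come from muscle stem cells (MuSCs, or satellite cells) of C57BL/6 mice and form 2 groups of 3. The Ctrl libraries carry the genotype Pax7CreERT/Suv4-20h1WT and the *Kmt5b* sKO libraries the genotype Pax7CreERT/Suv4-20h1KO. Suv4-20h1 is another name of *Kmt5b*, which encodes a methyltransferase that adds methyl groups to monomethylated lysine 20 of histone H4. Both groups thus share the tamoxifen-inducible Cre recombinase expressed from *Pax7*, a gene of satellite cells, and the floxed *Kmt5b* allele can be recombined only where this driver is or was active. Mice aged 8 to 12 weeks received tamoxifen. The MuSCs were enriched magnetically from limb and trunk muscle and grown on Matrigel with fetal calf serum, LIF and bFGF, and nuclei were taken while they proliferated. The comparison of both genotypes asks how loss of *Kmt5b* changes polymerase activity, and the labels do not tie a library to an animal or culture, so that p-values cover the spread between these libraries only.

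BMP ligands bind complexes of type I receptors such as BMPR1A with the type II receptor BMPR2. The receptors phosphorylate SMAD1, SMAD5 and SMAD9, which enter the nucleus with SMAD4 and switch on target genes, among which the *Id* genes are the best known. SMAD6 and SMAD7 are themselves BMP targets and act back on the receptors as brakes, whereas Gremlin 1, Noggin, Chordin and Follistatin catch ligands outside the cell. ID proteins have a helix-loop-helix but no DNA-binding region and sequester the E proteins that MYOD and other myogenic factors need as partners. In MuSCs the pathway is known for sustaining proliferation and for holding back differentiation.

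Each gene has a value in its TSS region, the first 400 nt of 1 isoform, and in its gene body, the remainder of that isoform. The TSS values are in RPM, reads scaled to a common library total, and the gene body values in TPM, which also divides by length. As each region is scaled to a fixed total per library, a change shared by all genes cannot appear in them. Gene bodies of all listed genes held 7425426 to 16249082 reads per library and TSS regions 926904 to 3246052, with the second replicate the shallowest of its group in both regions. *Kmt5b* itself had 93.7, 87.3 and 102 RPM in the Ctrl and 120, 107 and 113 RPM in the *Kmt5b* sKO TSS regions, and was not lower in its gene body either, so that these values do not check the genotype. All 8 listed MuSC markers were transcribed in all 6 libraries, with the lowest gene body value in *Vcam1* (16.55 TPM in *Kmt5b* sKO replicate 3). *Pax7* held 38.6 ± 14 TPM in the Ctrl and 27.8 ± 2.1 TPM in the *Kmt5b* sKO gene bodies (SD, n = 3), with overlap. *Chrna1* went the other way, with 359 ± 41 and 432 ± 28 TPM. Its groups did not overlap, but Ctrl replicate 3 (405.2 TPM) lay barely below *Kmt5b* sKO replicate 1 (405.29 TPM). *Des* had a higher mean too, with 443 ± 106 and 737 ± 182 TPM, and overlapped. By mean log2 value, 5 of the 8 markers were higher and 3 lower in the *Kmt5b* sKO gene bodies.

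Promoter sequences are shown for *Id2*, *Id4* and *Grem1*, a highly transcribed member and the pair of members whose libraries separated by genotype in both regions. Windows of 250 bases before the RefSeq start (GRCm38.p6, the build of the deposited coordinates) were examined for 8 of the 10 genes. *Id1* and *Smad7* were left without a window, although RefSeq has a start for both. The windows below run 5′ to 3′ on the strand of the gene and end at the base before the RefSeq start, at chr12:25096093-25096342 on the minus strand for *Id2*, chr13:48260866-48261115 on the plus strand for *Id4* and chr2:113758649-113758898 on the minus strand for *Grem1*. Capitals mark GGCGCC, a GC-rich element that BMP-activated SMADs bind, and CANNTG, the E-box bound by E proteins and myogenic factors.
Id2: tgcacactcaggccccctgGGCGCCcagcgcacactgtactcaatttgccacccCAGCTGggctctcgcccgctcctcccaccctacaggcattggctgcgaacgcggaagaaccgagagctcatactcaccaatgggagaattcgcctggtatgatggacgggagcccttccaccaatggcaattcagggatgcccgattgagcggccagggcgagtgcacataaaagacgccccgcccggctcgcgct
Id4: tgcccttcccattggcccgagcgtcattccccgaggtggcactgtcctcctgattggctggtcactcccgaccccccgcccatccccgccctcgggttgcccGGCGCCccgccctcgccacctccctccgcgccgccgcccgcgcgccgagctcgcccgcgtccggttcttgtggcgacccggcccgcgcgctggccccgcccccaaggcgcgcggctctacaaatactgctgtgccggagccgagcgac
Grem1: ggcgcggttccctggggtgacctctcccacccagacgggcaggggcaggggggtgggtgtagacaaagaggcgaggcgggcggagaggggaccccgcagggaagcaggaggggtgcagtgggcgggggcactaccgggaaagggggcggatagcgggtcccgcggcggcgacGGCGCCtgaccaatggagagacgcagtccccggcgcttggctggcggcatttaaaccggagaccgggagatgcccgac

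The element GGCGCC was present in 5 of the 8 member windows (*Id2*, *Id4*, *Grem1*, *Bmpr1a* and *Bmpr2*) and in 9.59% of 32851 windows of the same length over all RefSeq promoters. Not all windows lie upstream of the listed isoform. The window of *Bmpr2* lies within its listed gene body and that of *Id3* within its listed TSS region, and that of *Bmpr1a* lies partly within its TSS region. Among the printed windows the E-box occurred only in that of *Id2*, once, and over all windows in 66.2%. Among the windows not printed it occurred 3 times before *Bmp4* and not before *Id3*, *Bmpr1a*, *Bmpr2* or *Smad6*. The window of *Id3*, which was transcribed more highly than *Id2*, thus held neither of these elements. The shorter SMAD-binding sequence GTCT, left in lower case above, occurred 4 times before *Grem1*, once before *Id2* and not before *Id4*, searched like the others on both strands, and in 82.9% of all windows. None of the 8 windows held the TATA sequence TATAAA, found in 12.4% of all windows. GC content was 62.8% for *Id2*, 75.6% for *Id4* and 72% for *Grem1*, against a median of 52.4%. The part of base composition in these matches was not tested, and a match describes the letters, not binding.

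Gene body values, which are comparable between genes per length, show that the members spanned more than 3 orders of magnitude. *Id3* was the 7th and *Id1* the 12th most transcribed of the 14546 listed genes by mean gene body TPM, *Id2* ranked 121 and *Smad7* 550. *Bmpr1a* ranked 1788, *Smad6* 2376, *Bmpr2* 3855 and *Id4* 6829, close to the median gene with 13.3 TPM. *Grem1* ranked 9467 and *Bmp4* 12409. In the Ctrl libraries the order was *Id3*, *Id1*, *Id2*, *Smad7*, *Bmpr1a*, *Smad6*, *Bmpr2*, *Id4*, *Grem1*, *Bmp4*, and neighbours overlapped only for *Bmpr1a* with *Smad6* and for *Grem1* with *Bmp4*. In the *Kmt5b* sKO libraries the order of the means was the same, but here *Bmpr1a* lay above *Smad6* in every library, *Grem1* lay above *Bmp4*, and *Grem1* overlapped with *Id4*.

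**Figure D1:**
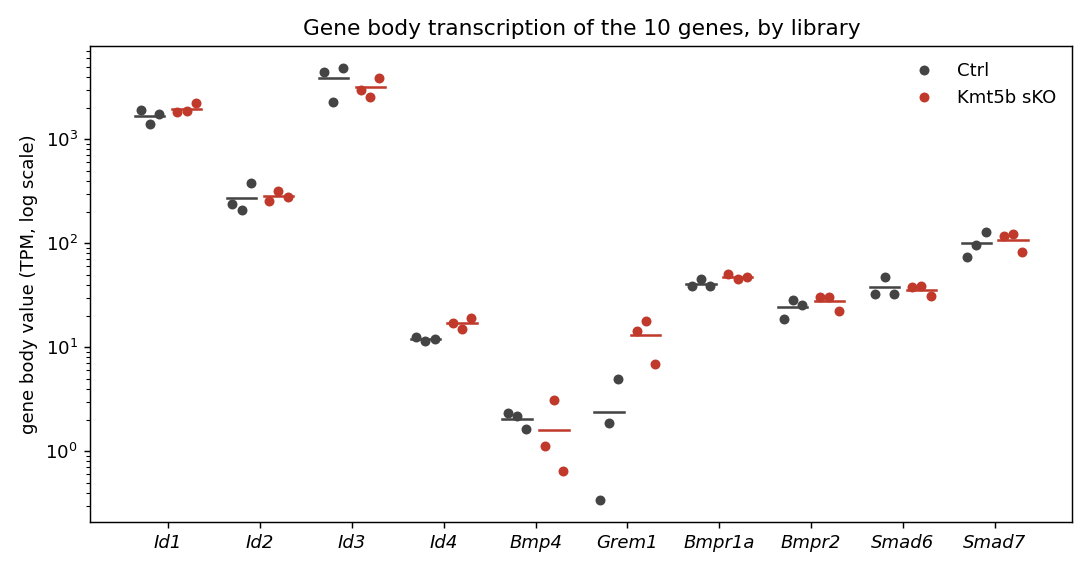
Gene body values in TPM (log axis) of the 10 genes in 3 Ctrl (grey) and 3 *Kmt5b* sKO (red) libraries, with a point per library and a bar at the group mean. *Id3* and *Id1* lie above 1000 TPM in all 6 libraries, and *Grem1* is the gene whose groups lie farthest apart, from 0.34 to 4.92 TPM in Ctrl and from 6.85 to 17.9 TPM in *Kmt5b* sKO libraries.

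The genotypes were compared with limma on the scale of log2(value + 0.5), over the 12451 genes that passed a filter on low values, and a gene counts as called when its Benjamini-Hochberg adjusted p is under 0.1. Log2 fold changes of *Kmt5b* sKO over Ctrl are given ± SE. In the TSS region 1 of the 9 members tested was called, *Grem1*, where 1.66% of all genes were. The *Kmt5b* sKO libraries lay above all Ctrl libraries for 2 members (*Id4* and *Grem1*), which held for 10.2% of all genes, and below them for 0 members, which held for 5.33%. For the gene body, 0 of 9 members were called by limma, edgeR or DESeq2, against 2.99% of all genes with limma, and *Id4* and *Grem1* had an unadjusted p under 0.05 with limma. The *Kmt5b* sKO libraries lay above the Ctrl libraries for 3 members (*Id4*, *Grem1* and *Bmpr1a*), against 12.0% of genes, and below them for 0, against 9.34%. The 9 members had a median log2 fold change of 0.14 for the TSS region and of 0.20 for the gene body, beside 0.081 and 0.023 over all genes. *Bmp4* was left out of these tests because its TSS mean lay under 0.5 RPM.

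**Figure D2:**
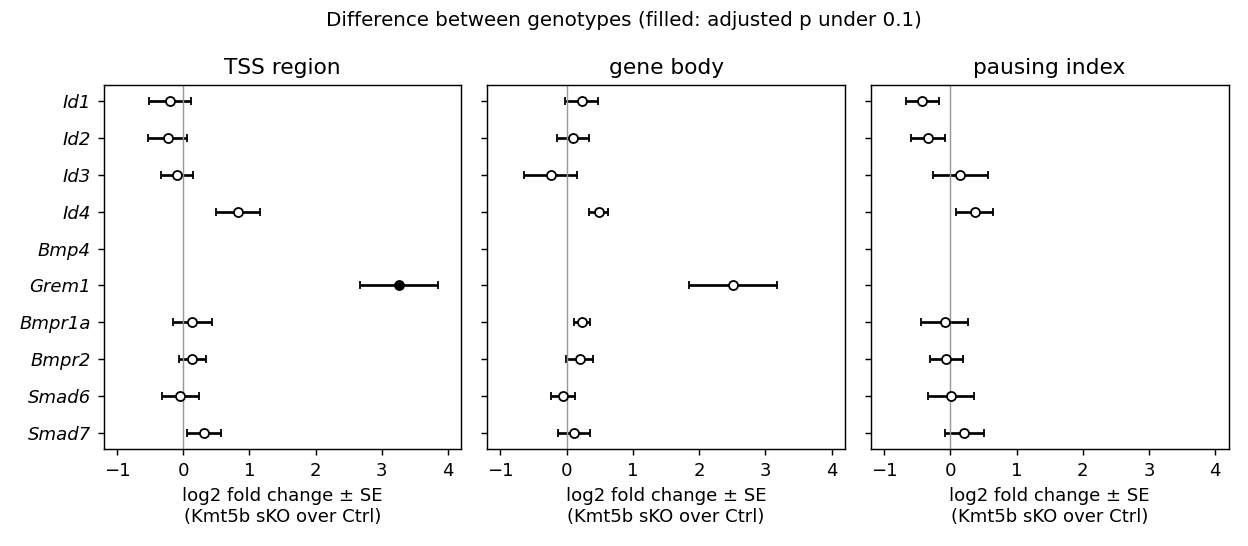
Log2 fold change of *Kmt5b* sKO over Ctrl with its SE from limma (3 libraries per group) for the TSS region, the gene body and the pausing index, with filled points at an adjusted p under 0.1. *Grem1* in the TSS region (3.26 ± 0.59) is the filled point, and 7 of the other 8 genes lie within 0.33 of 0 there, with *Id4* at 0.83.

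*Grem1*, the BMP antagonist, was barely transcribed in Ctrl cells and rose in the TSS region of *Kmt5b* sKO cells. Its TSS values were 0, 0.57 and 2.08 RPM in the Ctrl and 7.54, 11.2 and 12.4 RPM in the *Kmt5b* sKO libraries. These rest on 0, 1 and 11 reads against 23, 17 and 27 reads, and the 0 reads of Ctrl replicate 1 allow up to 0.726 RPM (3 reads, counting error only). The groups did not overlap, and the lowest *Kmt5b* sKO library was more than 3 times the highest Ctrl library. The log2 fold change was 3.26 ± 0.59 (SE, limma, adjusted p = 0.029), a scale on which the pseudocount shrinks low values. The adjusted p lay between 0.0034 and 0.30 over 17 alternatives and missed the threshold in 5, among them the fits without Ctrl replicate 1 (2.68, limma adjusted p = 0.17) and without *Kmt5b* sKO replicate 3 (3.12, limma adjusted p = 0.12).

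In the gene body of *Grem1* the Ctrl libraries held 0.34, 1.89 and 4.92 TPM and the *Kmt5b* sKO libraries 14.4, 17.9 and 6.85 TPM, from 6 to 193 reads. The groups again did not overlap, but *Kmt5b* sKO replicate 3 lay nearer to Ctrl replicate 3 than to the other *Kmt5b* sKO libraries. The log2 fold change of 2.51 ± 0.66 did not pass the threshold (limma adjusted p = 0.13), which it did only in the fit without Ctrl replicate 3 (3.16, limma adjusted p = 0.045). *Grem1* lies at chr2:113746164-113758646 on the minus strand, and its TSS region covers 156 nt of the first exon and 244 nt of the first intron. The RefSeq start lies 2 nt upstream of the listed start.

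As the libraries are from bulk cultures, more cells that transcribe *Grem1* and more transcription per cell cannot be told apart. Fibro-adipogenic cells are known to make Gremlin 1, and 8 of their 11 listed markers were in the table. The summed gene body level of these 8 was 122 to 203 TPM in the Ctrl and 145 to 156 TPM in the *Kmt5b* sKO libraries, 0 of 8 were called in either region by limma (1 in each had an unadjusted p under 0.05), and *Pdgfra* lay between 0.49 and 1.06 TPM. The marker with such a p in the gene body was *Cd34*, with 0.15, 0.04 and 0.29 TPM in the Ctrl and 0.45, 1.59 and 0.52 TPM in the *Kmt5b* sKO libraries (0.96 ± 0.37, limma adjusted p = 0.27), without overlap. *Cd34* passed the filter only through the *Kmt5b* sKO libraries. In the TSS region it was *Col1a1*, with 6.78, 32.2 and 8.71 RPM against 21.0, 25.1 and 25.8 RPM (0.91 ± 0.42, limma adjusted p = 0.44), where the groups overlapped. Markers of mature muscle fibres had higher values in the *Kmt5b* sKO libraries. Their 9 genes summed to 725 to 1376 TPM in the Ctrl and 1651 to 2280 TPM in the *Kmt5b* sKO gene bodies, none was at 0 in all libraries, and the 6 tested had a median log2 fold change of 0.84, all 6 with higher values and 0 of them called (4 at an unadjusted p under 0.05, limma). In the TSS region, where *Grem1* was called, the median of these 6 was 1.0, again with 6 higher values and 0 calls (6 at an unadjusted p under 0.05, limma). The part of both marker lists in the result for *Grem1* was not tested.

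Of the markers of endothelial and blood cells, *Cdh5*, *Pecam1* and *Itgam* were low in all gene bodies, whereas *Cd14* and *Cd68* were not. Of 7 endothelial markers 4 were listed, and for 2 of these, *Cdh5* and *Pecam1*, the *Kmt5b* sKO gene bodies lay above all Ctrl libraries. *Tek* had a lower mean in the *Kmt5b* sKO gene bodies, with 0.93 TPM in the Ctrl and 0.76 TPM in the *Kmt5b* sKO libraries. Its groups overlapped, on 83 to 246 reads, and it was not tested. *Cdh5*, too low to be tested, held 0.24, 0.41 and 0.23 TPM in the Ctrl and 0.95, 1.01 and 0.81 TPM in the *Kmt5b* sKO libraries, and *Pecam1* 2.44, 1.42 and 2.73 TPM against 2.97, 3.04 and 2.93 TPM (0.40 ± 0.24, limma adjusted p = 0.49). Without the filter the gene body of *Cdh5* was not called (0.85, limma adjusted p = 0.12). In the TSS region *Pecam1* went the other way, with 1.20 and 0.37 RPM on average on at most 6 reads. *Cdh5* was higher there too, with 0 RPM in all Ctrl and 0.33, 1.98 and 0.46 RPM in the *Kmt5b* sKO libraries, on at most 3 reads. The endothelial sums of 3.54 to 8.57 TPM in the Ctrl and 5.45 to 14.7 TPM in the *Kmt5b* sKO gene bodies overlapped, with most of the sum in 3 libraries from *Cldn5* (6.07 TPM in Ctrl replicate 2, and 7.54 and 10.4 TPM in *Kmt5b* sKO replicates 2 and 3). The part of these markers in the results was not tested. Of 7 macrophage and leukocyte markers 3 were listed, with *Itgam* at 0.31 to 0.65 TPM in the gene body and at 0 in the TSS region of all 6 libraries. *Cd14* held 22.2, 6.26 and 43.8 TPM in the Ctrl and 14.3, 25.4 and 9.97 TPM in the *Kmt5b* sKO gene bodies. Its groups overlapped (-0.26 ± 0.66, limma adjusted p = 0.91), on 9 to 79 reads. Sums of the blood cell markers of 221 to 446 TPM and 334 to 350 TPM were mostly *Cd68*, a lysosomal gene that is not restricted to macrophages.

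**Figure D3:**
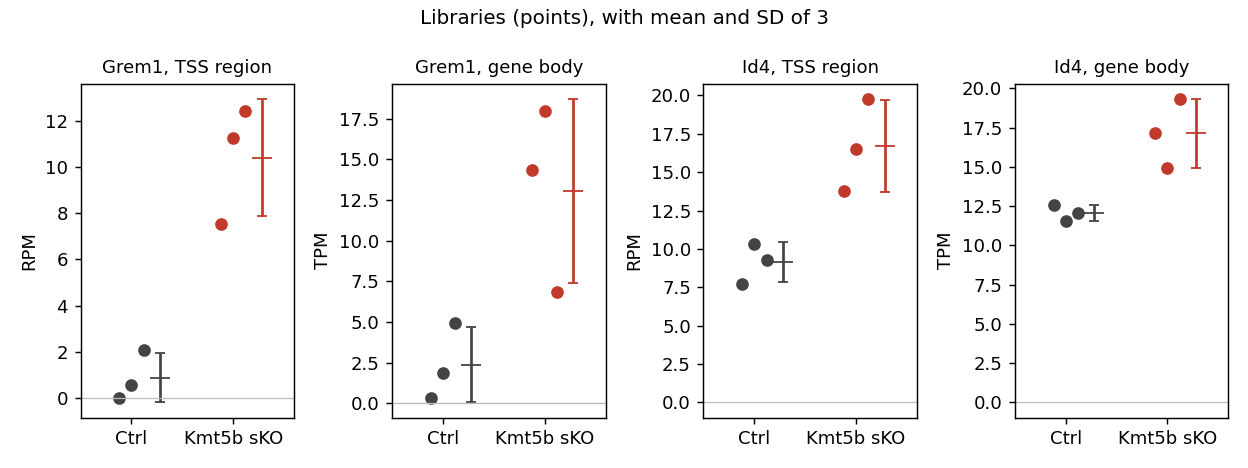
TSS values (RPM) and gene body values (TPM) of *Grem1* and *Id4* in each library (points, 3 Ctrl in grey and 3 *Kmt5b* sKO in red), with the group mean and SD beside them. In all 4 panels every *Kmt5b* sKO library lies above every Ctrl library, with gene body values of *Id4* from 11.6 to 12.6 TPM in Ctrl and from 14.9 to 19.3 TPM in *Kmt5b* sKO libraries.

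*Id4*, the least transcribed *Id* gene, had higher values in all *Kmt5b* sKO libraries but passed no test over all genes. Its TSS region held 7.75, 10.3 and 9.28 RPM in the Ctrl and 13.8, 16.5 and 19.8 RPM in the *Kmt5b* sKO libraries, from 18 to 49 reads. Its gene body held 12.6, 11.6 and 12.1 TPM against 17.2, 14.9 and 19.3 TPM, from 43 to 84 reads. The groups did not overlap in either region, and the Ctrl libraries of the gene body agreed closely among themselves (12.1 ± 0.51 TPM, SD, n = 3) while the *Kmt5b* sKO libraries spread more (17.1 ± 2.2 TPM). On the log2 scale the difference was 0.83 ± 0.33 for the TSS region (limma adjusted p = 0.32) and 0.48 ± 0.14 for the gene body (limma adjusted p = 0.16). The gene lies at chr13:48261228-48266026 on the plus strand, 112 nt downstream of the RefSeq start. A pair of noncoding genes overlaps it on the opposite strand, where reads were not counted.

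*Id1*, *Id2* and *Id3*, the *Id* genes best known as BMP targets, were transcribed at high and overlapping levels in both genotypes. *Id1* held 1911, 1414 and 1737 TPM in the Ctrl and 1829, 1853 and 2215 TPM in the *Kmt5b* sKO gene bodies, from at least 921 reads. TSS values were 2438, 1509 and 2138 RPM against 1519, 1548 and 2234 RPM. Neither region separated the genotypes, and the log2 fold changes of 0.23 ± 0.25 in the gene body and -0.19 ± 0.32 in the TSS region did not pass the threshold (limma adjusted p = 0.74 and 0.89). Both values were sensitive to scaling, since quantile normalization moved the gene body value to 0.75 (limma adjusted p = 0.10, above the threshold) and turned the TSS value to 0.29. *Id1* lies at chr2:152736251-152737410, with a gene body of only 759 nt.

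*Id2* held 236, 207 and 379 TPM in the Ctrl and 254, 321 and 280 TPM in the *Kmt5b* sKO gene bodies. In the TSS region it held 532, 292 and 755 RPM against 349, 444 and 464 RPM. Ctrl replicate 3 was the highest library in both regions and Ctrl replicate 2 the lowest, so that the *Kmt5b* sKO libraries lay inside the range of the Ctrl libraries. Its log2 fold change was 0.10 ± 0.24 in the gene body (limma adjusted p = 0.90) and -0.24 ± 0.29 in the TSS region (limma adjusted p = 0.85). Quantile normalization turned the gene body value to -0.0033.

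*Id3* held 4454, 2273 and 4891 TPM in the Ctrl and 2965, 2570 and 3908 TPM in the *Kmt5b* sKO gene bodies. TSS values were 542, 440 and 670 RPM against 536, 440 and 556 RPM. Here too Ctrl replicate 2 was the lowest and Ctrl replicate 3 the highest of the 6 libraries. Its log2 fold change was -0.24 ± 0.40 in the gene body (limma adjusted p = 0.83), which quantile normalization turned to 0.22, and -0.094 ± 0.24 in the TSS region (limma adjusted p = 0.94). As the gene bodies of *Id1* and *Id3* are short and hold up to 10448 reads in a library, removal of duplicate reads could lower such values. This was not tested.

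*Bmp4*, the only BMP ligand among the members, gave the least signal. Its TSS region held 1 read in the 6 libraries together, in Ctrl replicate 2, and a count of 0 allows between 0.568 and 1.98 RPM in the other 5 libraries. Its gene body held 2.33, 2.18 and 1.63 TPM in the Ctrl and 1.12, 3.08 and 0.65 TPM in the *Kmt5b* sKO libraries, from 22, 16 and 15 reads against 8, 13 and 4. The highest and the lowest library were both of the *Kmt5b* sKO group, and a difference was not detectable at this depth. Reads of an antisense gene that overlaps *Bmp4* were not counted with it.

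The receptor genes were transcribed at similar levels in both genotypes. *Bmpr1a*, which encodes a type I receptor, held 38.6, 45.2 and 39.1 TPM in the Ctrl and 50.2, 45.7 and 47.6 TPM in the *Kmt5b* sKO gene bodies, from 2743 to 5166 reads. The groups did not overlap, by a margin of less than 1 TPM between *Kmt5b* sKO replicate 2 and Ctrl replicate 2. The log2 fold change was 0.22 ± 0.12 (limma adjusted p = 0.44). In the TSS region the 23.7, 23.0 and 25.95 RPM of the Ctrl libraries lay within the 25.9, 39.0 and 18.9 RPM of the *Kmt5b* sKO libraries (0.14 ± 0.29, limma adjusted p = 0.93), and the sign turned without *Kmt5b* sKO replicate 2 (-0.13). The gene lies at chr14:34410734-34502687 on the minus strand.

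*Bmpr2*, which encodes the type II receptor, held 18.8, 28.4 and 25.6 TPM in the Ctrl and 30.2, 30.5 and 22.5 TPM in the *Kmt5b* sKO gene bodies. TSS values were 108, 110 and 123 RPM against 134, 123 and 119 RPM. Both regions overlapped between the genotypes, with log2 fold changes of 0.20 ± 0.20 in the gene body (limma adjusted p = 0.72) and 0.14 ± 0.20 in the TSS region (limma adjusted p = 0.88). The gene body spans 115214 nt of chr1:59763400-59879014 and the gene shares 3438 nt with *Gm38125*, a same-strand entry of the annotation with no known function, whose reads cannot be told apart from those of *Bmpr2*.

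The inhibitory SMAD genes showed no difference beyond the spread between libraries. *Smad6* held 32.3, 47.5 and 32.9 TPM in the Ctrl and 37.8, 38.5 and 31.0 TPM in the *Kmt5b* sKO gene bodies, and 40.7, 38.5 and 32.0 RPM against 55.7, 25.8 and 31.7 RPM in the TSS region. The log2 fold change was -0.054 ± 0.18 in the gene body (limma adjusted p = 0.93) and -0.044 ± 0.28 in the TSS region (limma adjusted p = 0.98). *Smad7* was transcribed at about 3 times the gene body level of *Smad6*, with 74.5, 96.9 and 129 TPM in the Ctrl and 117, 122 and 82.1 TPM in the *Kmt5b* sKO libraries. Its TSS region held 54.7, 45.4 and 83.9 RPM against 91.1, 76.6 and 58.4 RPM. The groups overlapped, with log2 fold changes of 0.11 ± 0.24 in the gene body (limma adjusted p = 0.88) and 0.32 ± 0.25 in the TSS region (limma adjusted p = 0.74).

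The pausing index divides the TSS value by that of the gene body and measures how far polymerases gather near the start of a gene. Both values are scaled to separate totals, so that the index has a meaning only relative to other genes. Over 11698 genes the median of the mean index over 6 libraries was 1.59. *Bmpr2* had an index of 4.81 ± 0.93 (SD, n = 3) in the Ctrl and 4.59 ± 0.65 in the *Kmt5b* sKO libraries, higher than 91.2% of genes. *Id3* had 0.15 ± 0.038 and 0.16 ± 0.020, and 1.71% of genes were lower.

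Annotation limits these indices. The TSS region of *Id3* begins 325 nt upstream of the RefSeq start, so that only 75 of its 400 nt lie past that start, and the RefSeq start of *Bmpr2* lies 879 nt downstream of the listed start, beyond the TSS region. Their part in these indices was not tested. Short genes had a lower median index of 0.973 (465 genes with a gene body under 2000 nt), and 8.17% of these lay below *Id3*. *Id1* (mean over 6 libraries 1.04) and *Id2* (1.68) had a gene body under 2000 nt too and lay above 52.5% and 73.3% of the short genes.

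No gene was called for the pausing index by limma (0% of 11698 genes, with 452 at an unadjusted p under 0.05), nor was any of the 8 members tested, which had 0 such p-values. Of these 8, *Id1* was the one whose libraries did not overlap, with 1.28, 1.07 and 1.23 in the Ctrl and 0.83, 0.84 and 1.01 in the *Kmt5b* sKO libraries. This lower index, in 1 of the 8 tested members, stands beside 3.09% of genes with *Kmt5b* sKO libraries below all Ctrl libraries. The log2 difference of -0.42 ± 0.25 did not pass the threshold (limma adjusted p = 1.0). The opposite, an index above all Ctrl libraries, was found for 0 of the 8 tested members and 5.93% of genes. *Grem1* could not be tested, because its index was 0 in Ctrl replicate 1, where no TSS read was found. Its other values were 0.30 and 0.42 in the Ctrl and 0.52, 0.63 and 1.81 in the *Kmt5b* sKO libraries, of which that of replicate 3 stands apart. The Ctrl indices of *Grem1* rest on 0 TSS reads over 6 gene body reads in replicate 1 and on 1 TSS read in replicate 2. Whether its groups separate therefore cannot be told.

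**Figure D4:**
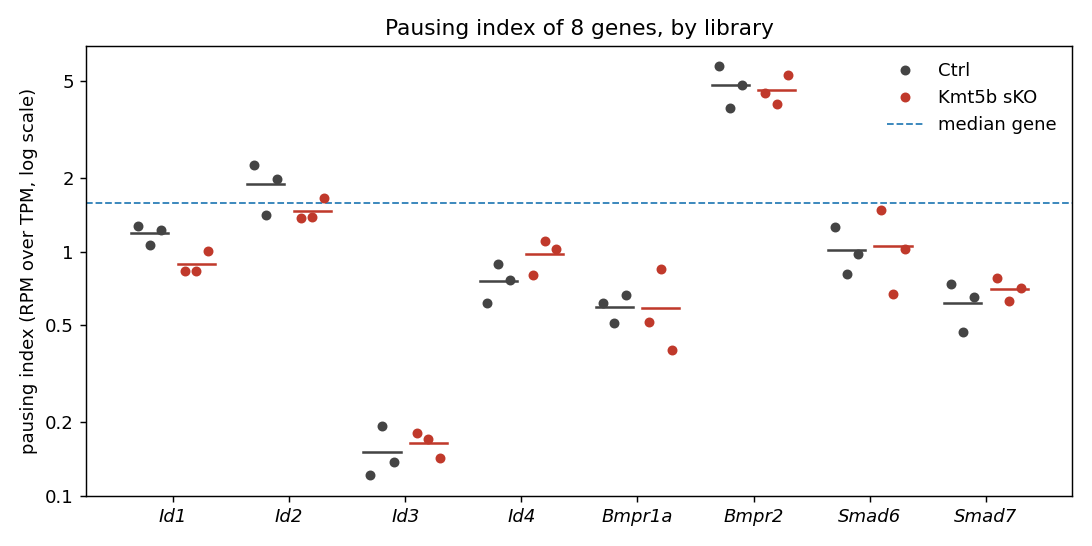
Pausing index (TSS RPM over gene body TPM, log axis) of 8 genes in 3 Ctrl (grey) and 3 *Kmt5b* sKO (red) libraries, with a point per library, a bar at each group mean and a dashed line at the median gene (1.59). *Bmpr2* lies above the line and *Id3* far below it in all 6 libraries, and the groups overlap for every gene drawn but *Id1*. *Grem1* and *Bmp4*, with indices of 0, are not drawn.

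Other genes of the pathway were taken from 7 lists by role. Of their 60 genes tested, 4 were called by their TSS value (6.67%, against 1.66% of all genes) and 2 by their gene body value (3.33%, against 2.99%), all 6 with higher values in the *Kmt5b* sKO libraries. Of these 6, *Msx2* and *Acvrl1* passed the filter on low values only through the *Kmt5b* sKO libraries. The lists were chosen with earlier results of these data known, so that *Myf6* and *Tob1* are no independent support. Both shares include these genes, and they are a description, not a sign that calls are more frequent in the pathway. Of 12 other BMP ligands 3 were listed, all at low gene body levels, and 0 of 3 were called in either region by limma (1 in each had an unadjusted p under 0.05). *Gdf6* came nearest, with 0.19, 1.50 and 2.55 TPM in the Ctrl and 6.09, 6.95 and 5.91 TPM in the *Kmt5b* sKO gene bodies (log2 fold change 2.07 ± 0.50, limma adjusted p = 0.11). The groups did not overlap, as in its TSS region (1.76 ± 0.56, limma adjusted p = 0.17). *Bmp8a* had a mean between 2.50 and 2.65 TPM in both groups, and *Bmp2* held 0.63 ± 0.28 and 1.24 ± 0.38 TPM (SD, n = 3).

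Of the other BMP antagonists 12 of 14 were listed and 11 tested, and 1 was called, in the TSS region. *Fst*, which encodes the activin and BMP antagonist Follistatin, held 4.60, 9.19 and 5.87 RPM in the Ctrl and 22.0, 11.2 and 24.8 RPM in the *Kmt5b* sKO TSS regions. All *Kmt5b* sKO libraries lay above the Ctrl libraries, with replicate 2 the lowest, and *Fst* rose by 1.47 ± 0.39 on the log2 scale (limma adjusted p = 0.085). Its gene body held 22.6 ± 12 and 71.4 ± 24 TPM (SD, n = 3) without overlap (1.71 ± 0.42, limma adjusted p = 0.11). *Nog*, which encodes Noggin, gave 21.1, 27.2 and 18.4 TPM against 32.7, 55.5 and 62.4 TPM, also without overlap (1.12 ± 0.26, limma adjusted p = 0.10, above the threshold), while its TSS region overlapped. The antagonist gene *Nbl1* and *Chrd*, which encodes Chordin, overlapped between the genotypes in both regions. Values were higher in the *Kmt5b* sKO libraries for 9 of 11 antagonists in the TSS region (median log2 fold change 0.28 against 0.081 over all genes) and for 6 of 11 in the gene body (0.085 against 0.023).

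Among 11 other receptors and co-receptors 1 was called in each region, both with higher values in *Kmt5b* sKO libraries. *Hfe2* (hemojuvelin, a BMP co-receptor that skeletal muscle makes) held 42.4, 66.7 and 32.4 RPM in the Ctrl and 99.7, 66.0 and 155 RPM in the *Kmt5b* sKO TSS regions. It rose by 1.15 ± 0.30 on the log2 scale (limma adjusted p = 0.079), although *Kmt5b* sKO replicate 2 lay just below Ctrl replicate 2. The gene body of *Hfe2* overlapped as well and was not called (1.15 ± 0.54, limma adjusted p = 0.36). *Acvrl1*, which encodes a type I receptor of endothelium, rose in the gene body from 2.42, 1.71 and 2.26 TPM to 4.49, 4.84 and 4.28 TPM (0.95 ± 0.19, limma adjusted p = 0.075). Its groups did not overlap, and its level remained low, with 32 to 82 reads. *Acvrl1* passed the filter, which covers both regions, only through the *Kmt5b* sKO libraries, since its TSS region held 0, 0 and 2 reads in the Ctrl libraries (0.13 RPM on average, against 0.92 RPM). Its call therefore adds nothing to the count for the list. Without the filter its adjusted p was 0.090 (limma). The co-receptor gene *Rgmb* and the type I receptor *Acvr1* overlapped in both regions.

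Of the SMAD transducers *Smad1*, *Smad5*, *Smad9* and *Smad4*, 0 of 4 were called in either region by limma, with an unadjusted p under 0.05 for 1 in the gene body. That gene was *Smad1*, with 37.0, 39.5 and 32.2 TPM in the Ctrl and 46.2, 46.3 and 42.7 TPM in the *Kmt5b* sKO gene bodies (0.32 ± 0.13, limma adjusted p = 0.29). The groups did not overlap for *Smad1* or *Smad5* (0.19 ± 0.12, limma adjusted p = 0.51), and they did for *Smad9* and *Smad4*. Among 13 regulators of SMADs *Tob1*, an antiproliferative gene whose product represses BMP-activated SMADs, rose in the gene body from 73.4, 83.5 and 74.2 TPM to 148, 112 and 190 TPM. The groups did not overlap, and the log2 fold change was 0.92 ± 0.20 (limma adjusted p = 0.090). In the TSS region of *Tob1* they overlapped, and it was not called there (0.53 ± 0.24, limma adjusted p = 0.40).

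Of 14 other genes known to respond to BMP, 11 were listed and *Msx2*, a homeobox gene, was called in the TSS region. It went from 0.24, 0 and 0.76 RPM to 3.28, 4.62 and 3.22 RPM (2.42 ± 0.63, limma adjusted p = 0.082), on at most 10 reads in any library. *Msx2* passed the filter on low values only through the *Kmt5b* sKO libraries, with Ctrl means of 0.33 RPM and 0.34 TPM, so that its call adds nothing to the count for the list, and without the filter it was not called (limma adjusted p = 0.27). Of the gene bodies 0 of 11 were called by limma (3 at an unadjusted p under 0.05), and the list had 5 higher and 6 lower values. The most transcribed were *Cdkn1a* (513 ± 76 TPM in Ctrl and 845 ± 132 TPM in *Kmt5b* sKO libraries, SD, n = 3), *Hes1*, *Sp7* and *Atoh8*. *Cdkn1a*, which encodes the cell cycle inhibitor p21 and responds to other pathways as well, did not overlap between the groups and did not pass (0.72 ± 0.21, limma adjusted p = 0.15). *Runx2*, a transcription factor gene of bone formation, lay below all Ctrl libraries in both regions. Its TSS region held 59.3, 52.9 and 56.5 RPM against 45.9, 33.0 and 37.3 RPM (-0.54 ± 0.23, limma adjusted p = 0.37) and its gene body 70.9, 73.2 and 70.7 TPM against 58.8, 60.8 and 48.7 TPM (-0.35 ± 0.13, limma adjusted p = 0.25), neither past the threshold.

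Among the 7 E proteins and myogenic partners that ID proteins bind or hold in check, *Myf6* was called in the TSS region. This myogenic factor gene went from 3.15, 0.57 and 0.38 RPM to 12.5, 15.2 and 22.1 RPM (3.46 ± 0.54, limma adjusted p = 0.026), without overlap. Behind these values are 13, 1 and 2 reads for Ctrl against 38, 23 and 48 for *Kmt5b* sKO. In the gene body *Myf6* overlapped (0.41 ± 0.26, limma adjusted p = 0.53), and 0 of 7 were called by limma, with 0 at an unadjusted p under 0.05. *Myod1* held 855 to 1272 TPM in the Ctrl and 1091 to 1328 TPM in the *Kmt5b* sKO gene bodies, and *Myog* 382 to 925 TPM and 790 to 1105 TPM. The E protein genes *Tcf4* and *Tcf12* lay between 37.6 and 53.6 TPM in all 6 libraries. *Tcf12* was lower in all *Kmt5b* sKO gene bodies, with 41.2, 46.5 and 42.45 TPM against 39.5, 39.0 and 38.4 TPM (-0.15 ± 0.11, limma adjusted p = 0.60). *Tcf3* averaged 35.0 and 29.6 TPM, with overlap.

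The calls outside the members were unstable. Of the alternatives run for each, *Fst* lost its call in 9 of 17, *Hfe2* in 9 of 17, *Acvrl1* in 7 of 16, *Tob1* in 8 of 17, *Msx2* in 13 of 16 and *Myf6* in 3 of 17. *Myf6* kept its call when any single library was left out. *Fst* and *Hfe2* lost theirs without Ctrl replicate 1 or 3 or *Kmt5b* sKO replicate 1 or 3, and *Tob1*, *Msx2* and *Acvrl1* lost theirs in every such fit except the one without Ctrl replicate 3. All 6 stayed higher in *Kmt5b* sKO libraries under every alternative run. The mature fibre markers, given beside *Grem1* above, were higher in the same libraries, and their part in these calls was not tested.

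**Figure D5:**
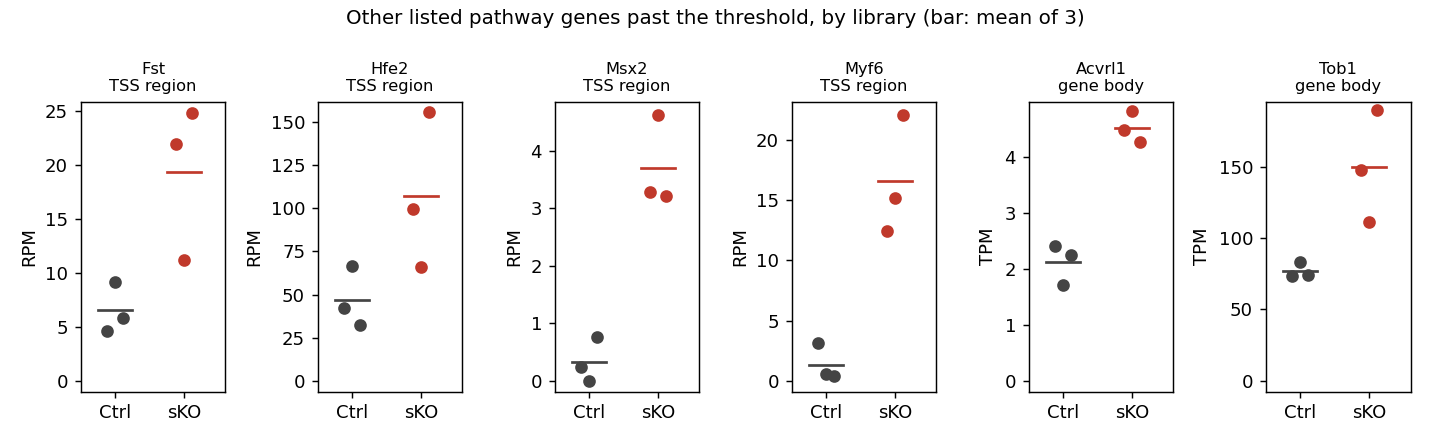
TSS values (RPM) of *Fst*, *Hfe2*, *Msx2* and *Myf6* and gene body values (TPM) of *Acvrl1* and *Tob1* in 3 Ctrl (grey) and 3 *Kmt5b* sKO (red) libraries, with a point per library and a bar at the mean. All 6 passed the threshold, and the libraries overlap only for *Hfe2* (66.7 RPM in Ctrl replicate 2 and 66.0 RPM in *Kmt5b* sKO replicate 2).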

How the data were processed

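Reads were processed by the authors. Trimmomatic 0.39 was used for trimming, STAR 2.6.1d for alignment to GRCm38 (a random position was retained for reads with several) and Picard 2.18.16 for the removal of duplicates. Sense-strand reads of protein-coding isoforms were counted, and the isoform with the highest TSS mean was listed. The authors scaled the TSS counts to a fixed library total and deposited them under the name TPM, which equals RPM here because all TSS regions have 1 length. These are whole reads in 100% of low values (tolerance 0.1 reads). The gene body values that the authors deposited are TPM. Every value column belonged to a sample.

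Genes on X and Y (478) and genes with a mean under 0.5 in either region were left out. limma 3.58.1 (lmFit, eBayes with a trend; R 4.3.3) was fitted across all genes to log2(value + 0.5), with no term but genotype, and to the log2 pausing index without a pseudocount for genes above 0 in all libraries. Tests were checked on simulated data. Alternatives were the pseudocount, the filter, the threshold, quantile normalization, an untrended fit, a replicate block, leaving out each library, and edgeR 4.0.16 and DESeq2 1.42.0 on the recovered reads. The text names all members, every listed pathway gene past the threshold and the most transcribed genes of each list. *Gdf6*, *Nog*, *Smad1*, *Smad5*, *Runx2* and the named markers were in part chosen after their values were seen. The members and lists were chosen with earlier results of these data known, so that *Grem1*, *Myf6* and *Tob1* are no independent support. Tables and plots were made in Python 3.11.15 with pandas 2.3.3, numpy 2.4.6 and matplotlib 3.10.9.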

Additional observations from a re-analysis of the deposited data

How the results depend on the processing

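Of 26 member results, 12 changed sign under 1 or more alternatives (22 of 418 fits), and none of these 12 had been called. With quantile normalization the log2 fold change turned to 0.29 for *Id1* in the TSS region, to -0.0033 for *Id2* and 0.22 for *Id3* in the gene body, and to -0.038 for the pausing index of *Smad6*. Leaving out each library gave log2 fold changes in the TSS region from -0.61 to 0.077 for *Id2*, from -0.25 to 0.058 for *Id3*, from -0.13 to 0.39 for *Bmpr1a* and from -0.36 to 0.19 for *Smad6*. In the gene body it gave -0.078 to 0.36 for *Id2*, -0.15 to 0.13 for *Smad6* and -0.083 to 0.31 for *Smad7*, and for the pausing index -0.39 to 0.16 for *Bmpr1a*, -0.21 to 0.078 for *Bmpr2* and -0.27 to 0.30 for *Smad6*. *Grem1* in the TSS region ranged from 2.68 to 3.87 when each library was left out. It kept 3.26 but lost its call, the only member call, without the filter (limma adjusted p = 0.30), without the trend (0.15) and with the replicate block (0.13), so that 0 members were called there. Leaving out each library, 0 to 1 members were called in the TSS region and 0 to 1 in the gene body.

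Over all genes, limma called 207 in the TSS region, 64 at an adjusted p under 0.05, 1 to 408 when each library was left out (1 without Ctrl replicate 1), and 0 without the filter, without the trend or with the replicate block (1448, 1292 and 1141 at an unadjusted p under 0.05), while edgeR called 279 and DESeq2 295. In the gene body limma called 372, 1 at an adjusted p under 0.05, 0 to 836 when each library was left out (836 without Ctrl replicate 3) and 0 with the replicate block (1441 at an unadjusted p under 0.05), against 748 with edgeR and 1295 with DESeq2. For the pausing index 0 were called in all fits run. The causes were not tested. Same-numbered libraries did not deviate together (r from -0.16 to -0.034 in the TSS region and from -0.33 to -0.15 in the gene body). The labels do not say whether such libraries share a preparation, and these correlations cannot show it. Depth limits *Grem1*, *Bmp4*, *Msx2* and the TSS regions of *Id4*, *Myf6* and *Acvrl1*, which had fewer than 50 TSS reads in every library.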

Other observations

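The neighbouring TGF-beta and activin arm, which signals through other SMADs, had 19 of 20 genes listed and 0 called in either region by limma (4 TSS regions and 3 gene bodies had an unadjusted p under 0.05). *Mstn*, which encodes the muscle growth inhibitor myostatin, held 4.42, 8.29 and 5.68 TPM in the Ctrl and 22.1, 9.86 and 56.1 TPM in the *Kmt5b* sKO gene bodies, without overlap (log2 fold change 1.88 ± 0.56, limma adjusted p = 0.17). *Ltbp4*, whose product binds latent TGF-beta, lay lower in all *Kmt5b* sKO libraries, with 17.8, 10.9 and 11.5 against 8.67, 9.72 and 7.68 TPM (-0.57 ± 0.21, limma adjusted p = 0.26). The most transcribed gene of this arm, *Ctgf*, ranged from 50.4 to 243 TPM in the Ctrl and from 195 to 427 TPM in the *Kmt5b* sKO libraries, which overlap. *Mstn* and *Ltbp4* were chosen after their values were seen.

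Over the 6 libraries, the tested genes whose log2 gene body values followed *Grem1* most closely were *Plpp5*, *Kdm5b* and *Ereg*, each with Pearson r = 0.99. Those nearest to *Id1* were *Fgf17* and *Fbxo16* (r = 0.98) and *Zfp418* (r = 0.97). These are the highest of 12451 correlations over 6 points that share library and depth, and they are a description.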
